A study of Drosophila melanogaster with 13 samples.

Results

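Pita is a Drosophila zinc-finger protein that binds insulators and promoters. Its N-terminal ZAD, the zinc finger-associated domain, lets copies of the protein pair, and the zinc fingers bind DNA. Insulator proteins of this kind recruit the shared cofactor CP190 and are known for holding regulatory domains apart, as at the boundaries of the bithorax complex. The genes described here lie where Pita peaks were called in flies whose Pita lacked its ZAD or had it replaced, and not in flies with wild-type Pita.

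Out of 17684 genes in the RefSeq table, 7 were followed: CG31886, Spn, msn, Arpc4, mtt, Cnx99A and CG12134. They were chosen by the peak calls themselves. The first 6 lie at the 5 sites with the highest FLAG fold among those called with both antibodies in PitaΔZ and with neither in Pitawt. CG12134 lies at the only such site of PitaZ276. Their absence from the Pitawt lists, their presence in the lists of the choosing line and their FLAG fold there are therefore descriptions and carry no test. All 28 of the 6204 deposited peaks that lay inside these genes or within 2 kb of an end were used. Spn and msn share 1 site, so the 7 genes give 6 sites, named here by gene.

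The material was whole bodies of adult flies aged 2 to 3 days, so tissues were mixed, and each chromatin preparation came from about 1 g of pooled flies. All lines carried the pita1attP allele and differed in the Pita placed there: wild-type Pita (Pitawt), Pita without its ZAD (PitaΔZ, labelled with the y1w1118 background) or Pita with the ZAD-like domain of human ZFP276 in its place (PitaZ276). Rabbit antibodies to FLAG and to Pita gave 2 libraries each per line, and 1 preimmune library came from Pitawt flies. The 6 deposited lists joined a pair of peak lists each, so every value below is a single value per line and antibody, with no spread between replicates.

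The lists differed in length and in strictness. Pitawt FLAG held 1792 peaks, Pitawt Pita 1195, PitaΔZ FLAG 685, PitaΔZ Pita 797, PitaZ276 FLAG 1243 and PitaZ276 Pita 492. The irreproducible discovery rate (IDR), which grades how well a peak recurs between the joined lists, reached at most about 0.05 in Pitawt Pita and the PitaZ276 lists and about 0.01 in the other 3. The lowest −log10 p of a listed peak was 14.0 in Pitawt FLAG, 15.1 in Pitawt Pita, 14.9 in PitaΔZ FLAG and 5.42 in PitaΔZ Pita, and 8.72 and 5.72 in PitaZ276 FLAG and Pita. Each list thus had its own cut, so an absence below is an absence from that list. The 5 PitaΔZ sites had first-list −log10 p of 45.5 to 85.6 in PitaΔZ FLAG. In PitaΔZ Pita they had 14.5 (Cnx99A) to 179 (CG31886). The part of these cuts in the calls was not tested. Depth is unknown, as the lists hold no read counts. The fold enrichments and ranks below are the authors' values or follow from them, and each describes its own list only.

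At the 7 genes, 2 peaks were called in each Pitawt list, 7 in each PitaΔZ list, 8 in PitaZ276 FLAG and 2 in PitaZ276 Pita. By gene, Spn and Cnx99A had a peak of both Pitawt lists within 2 kb, and the other 5 genes had none. All but CG12134 had peaks of both PitaΔZ lists, all 7 had a PitaZ276 FLAG peak, and Spn and CG12134 had a PitaZ276 Pita peak. Over all genes the shares with a peak within 2 kb were 20.5% for Pitawt FLAG, 13.7% for Pitawt Pita, 8.87% for PitaΔZ FLAG, 9.10% for PitaΔZ Pita, 15.0% for PitaZ276 FLAG and 5.97% for PitaZ276 Pita. CG31886, msn, Arpc4 and mtt had peaks of both PitaΔZ lists and of neither Pitawt list in this window, as did 0.153% of all genes, or 27. CG12134 was among 5 genes (0.0283%) with the matching PitaZ276 pattern. Since these contrasts chose the genes, nothing is read from these counts.

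Peaks without a Pitawt partner were rare in PitaΔZ. Among its 685 FLAG peaks, 18 (2.63%) met no peak of either Pitawt list by at least 1 bp. Among the 654 of them also called with the Pita antibody, 15 (2.29%) met none. In PitaZ276 135 of 1243 FLAG peaks (10.9%) met no Pitawt peak, but only 1 of the 473 that were also called with the Pita antibody (0.211%). The 5 sites followed in PitaΔZ head the 15 by fold. The last of them, at Cnx99A, had a fold of 10.50, and the next, near the glue protein gene Sgs3 and not followed, had 10.42.

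**Figure D1:**
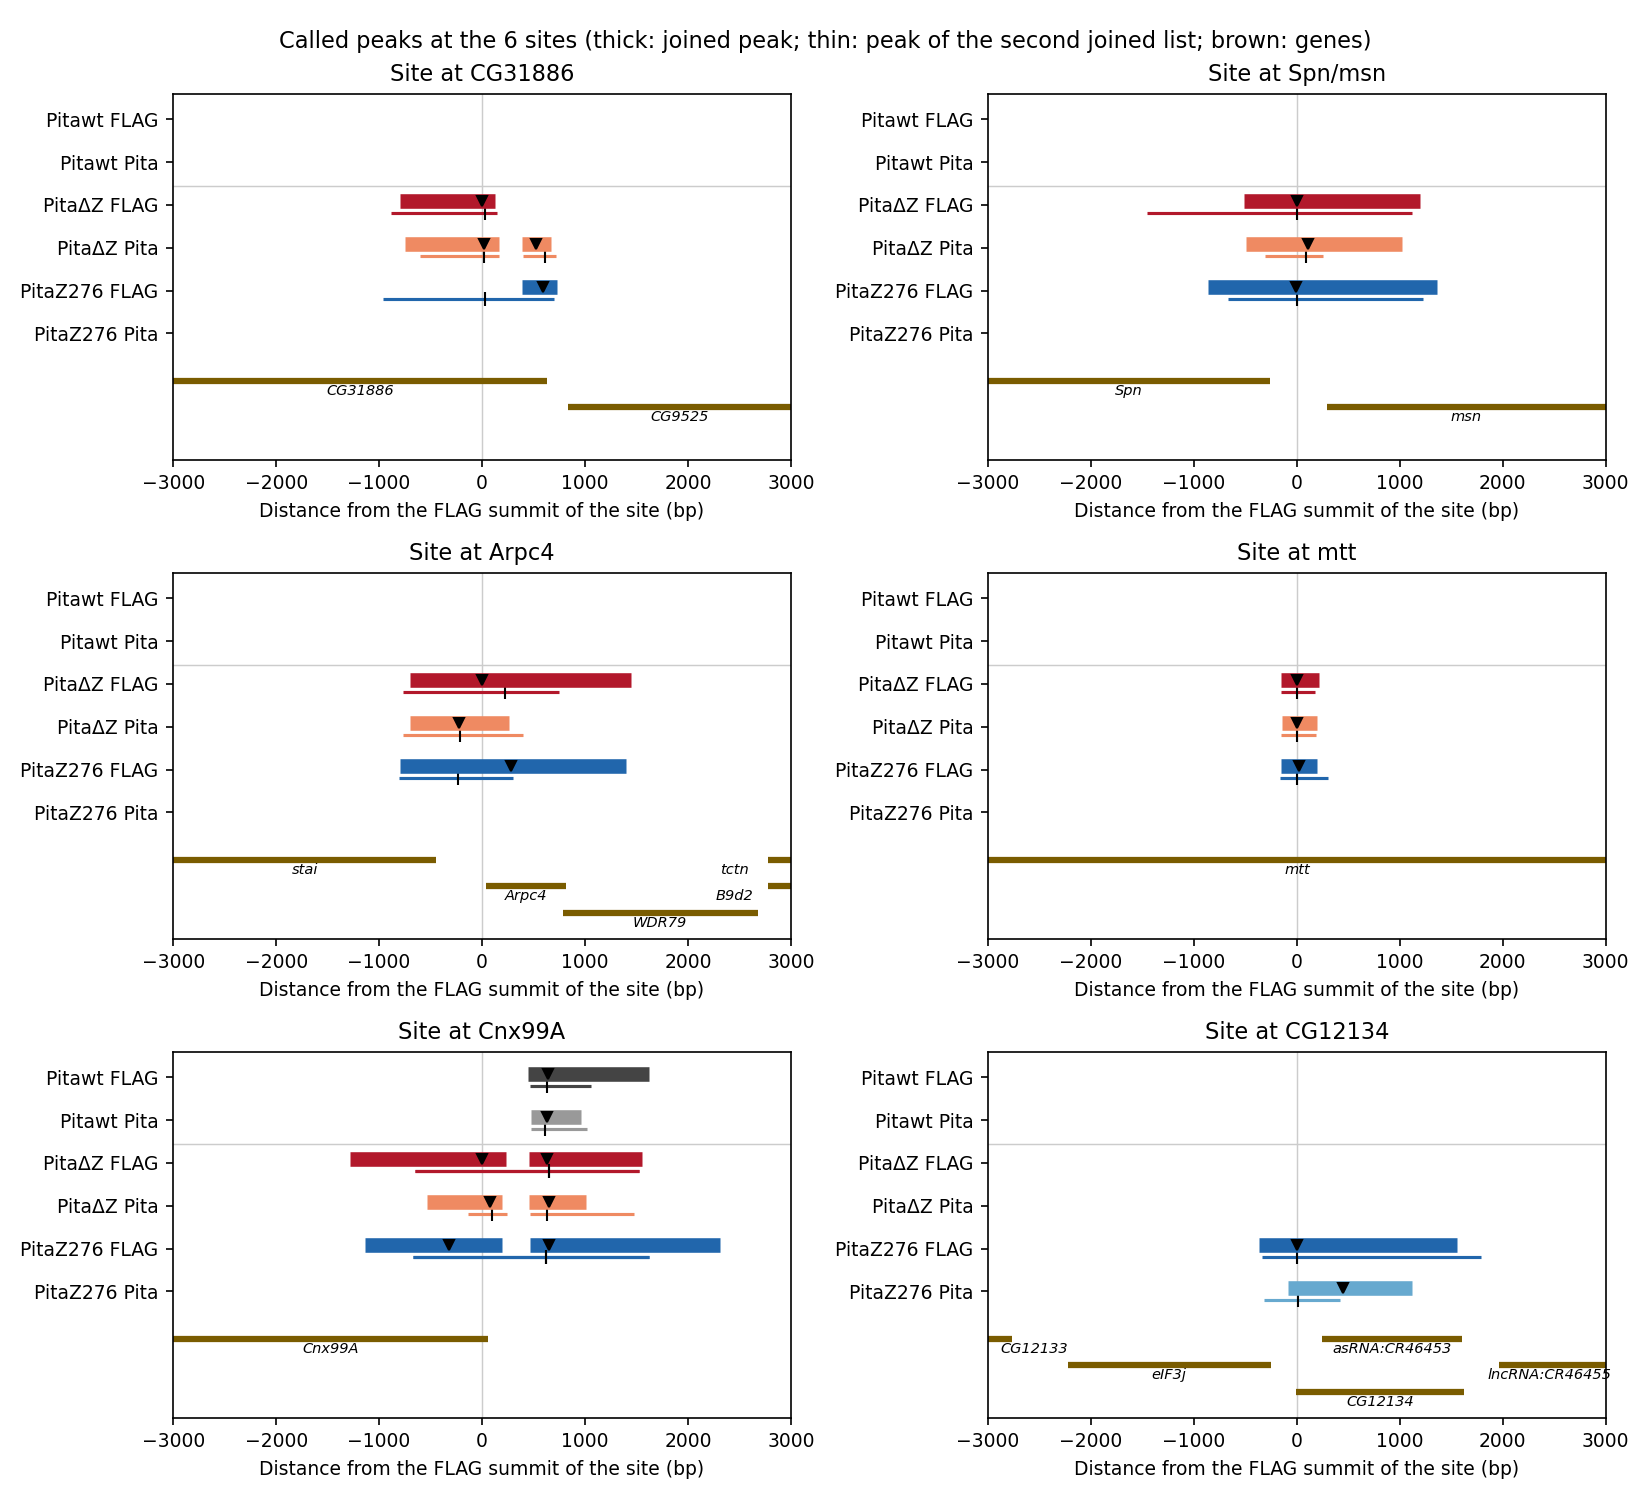
Called peaks in the 6 lists around each site, by distance in bp from the FLAG summit of the site. Thick bars are the joined peaks with their summits as triangles, thin bars are the peaks of the second joined list with their summits as ticks, and brown bars are genes. The mtt peaks are 343 to 371 bp wide and stacked on each other, and a Pitawt peak is in view at Cnx99A alone.

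The site between Spn and msn lay in the short gap that separates these neighbours on 3L. Spn (2505245 to 2554292) encodes spinophilin, a scaffold protein that binds protein phosphatase 1 and works at presynaptic active zones. msn (2554847 to 2586540) encodes Misshapen, a Ste20-family kinase upstream of JNK that also acts in the Hippo network. In PitaΔZ FLAG the peak ran from 2554035 to 2555750 with a fold of 12.5 and ranked 551 of 685. In PitaΔZ Pita it had a fold of 10.7 and ranked 479 of 797. In PitaZ276 FLAG, a list that did not choose the site, it had a fold of 8.58 and ranked 728 of 1243, and no PitaZ276 Pita peak was called. The site thus ranked below the middle of each list that held it. The 3 peaks were broad, at 1716, 1517 and 2234 bp, and each covered an end of both genes. Their FLAG summits fell 261 bp from Spn in PitaΔZ and 255 bp from it in PitaZ276, which is 6 bp apart. The Pita antibody placed the PitaΔZ summit 109 bp closer to msn.

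Spn also held 1 of the strong Pita sites of the genome, 22993 bp from the site beside msn. Its summit inside Spn was at 2531560 in Pitawt FLAG, with a fold of 90.8 and rank 46 of 1792. The same site had rank 61 of 1195 in Pitawt Pita, 10 of 685 in PitaΔZ FLAG, 38 of 1243 in PitaZ276 FLAG and 52 of 492 in PitaZ276 Pita. PitaΔZ Pita had no peak there. With the Pita antibody in PitaΔZ, the strong wild-type site in Spn was thus not listed, while the weak site beside msn was. Of the 685 PitaΔZ FLAG peaks, 654 met a PitaΔZ Pita peak. The peak of rank 1 in PitaΔZ FLAG, at the kinase gene wts, also lacked one. What set these calls was not tested.

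The site at Arpc4, on 2L, reached over 3 genes. Arpc4 (6125132 to 6125911) encodes a subunit of the Arp2/3 complex, which nucleates branched actin. Its neighbours are stai, which encodes the microtubule regulator stathmin, and WDR79, a WD-repeat gene. The PitaΔZ FLAG peak ran from 6124401 to 6126542 with a fold of 12.2 and rank 477 of 685, the highest rank of the 5 PitaΔZ sites. In PitaΔZ Pita the fold was 13.9 and the rank 380 of 797. In PitaZ276 FLAG the fold was only 3.01, with rank 1013 of 1243. The summit did not stay in place, and its 6 positions over the joined lists spanned 514 bp. In PitaΔZ Pita both joined lists put it between stai and Arpc4, at 6124878 and 6124883, and the second PitaZ276 FLAG list put it at 6124867. The second PitaΔZ FLAG list and the first PitaZ276 FLAG list put it inside Arpc4, at 6125323 and 6125381. The first PitaΔZ FLAG summit, 35 bp outside Arpc4, fell between these positions.

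The site at mtt was of another kind. This gene (2R, 8473956 to 8532294) encodes the receptor mangetout, a relative of the metabotropic glutamate receptors. Its summit lay well inside the gene, 13208 bp from the nearer end, and no other gene of the table overlapped it. The PitaΔZ FLAG peak, from 8518933 to 8519303, had a fold of 10.8 and rank 582 of 685. It had a fold of 7.98 and rank 567 of 797 in PitaΔZ Pita, and 6.41 and rank 868 of 1243 in PitaZ276 FLAG. The widths were 371, 343 and 353 bp. All 6 summits of the joined lists lay within 28 bp, from 8519082 to 8519110. It was the narrowest of the 6 sites. Its summits lay about as close together as the 5 within the CG31886 site (26 bp), where the first-list PitaZ276 FLAG summit lay 592 bp away. They lay closer than those between Spn and msn (115 bp), at Arpc4 (514 bp) or at CG12134 (447 bp). At Cnx99A the 4 summits within the site spanned 411 bp.

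The site at Cnx99A was the only one of the 6 with a Pitawt peak within 2 kb. Cnx99A (3R, 29315254 to 29319644) encodes calnexin, a chaperone of the endoplasmic reticulum that is needed for the maturation of rhodopsin. The site (29318304 to 29319824) had its PitaΔZ FLAG summit inside the gene, 55 bp from its end, with a fold of 10.5 and rank 581 of 685. In PitaΔZ Pita it had a fold of 4.25 and rank 701 of 797, and in PitaZ276 FLAG 3.72 and rank 1015 of 1243. Only 213 bp beyond it began a Pitawt FLAG peak whose summit, at 29320232, was 643 bp from that of the site. This neighbour had a fold of 14.3 and rank 787 of 1792 in Pitawt FLAG, and 12.9 and rank 651 of 1195 in Pitawt Pita. It was also called in PitaΔZ FLAG (fold 21.5, rank 416), PitaΔZ Pita (16.8, rank 391) and PitaZ276 FLAG (11.1, rank 625).

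The joined lists did not treat the Cnx99A site alike. In the second PitaΔZ FLAG list a single peak, from 29318941 to 29321114 with its summit at 29320243, was joined both to the site and to the Pitawt-called neighbour. These were the only 2 of the 685 PitaΔZ FLAG peaks that shared a second-list peak. The same happened in PitaZ276 FLAG, where 88 of 1243 peaks shared one. In PitaΔZ Pita, by contrast, both joined lists had a separate peak at the site, with summits at 29319662 and 29319682. With the ends of the second lists in place of the first, the site met Pitawt peaks, and 5 of the 6 sites remained without one.

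CG31886 has no role stated here. It lies on 2L from 8953481 to 8959051. The PitaΔZ FLAG peak, from 8957624 to 8958553, had a fold of 13.7 and rank 518 of 685. The PitaΔZ Pita peak had a fold of 20.1 and rank 343 of 797, which made it the highest-ranked of the 5 sites in that list. The 4 PitaΔZ summits lay inside the gene within 26 bp of each other, from 8958424 to 8958450. No PitaZ276 peak met this site by its joined ends. The PitaZ276 FLAG list instead held a peak from 8958810 to 8959151, fold 5.32 and rank 976 of 1243, with its first-list summit 592 bp away at the end of the gene. Its second-list summit was at 8958448, within the 26 bp of the PitaΔZ summits, in a peak from 8957460 to 8959122. PitaΔZ Pita also had a second peak at the end of the gene, with fold 3.30 and rank 751 of 797. Whether the site counts as held in PitaZ276 therefore turned on which joined list set the peak ends.

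CG12134 (2R, 9971143 to 9972780), for which the table lists the synonym CKIalpha like, was the gene of the PitaZ276 site. In PitaZ276 FLAG the peak ran from 9970784 to 9972704 with a fold of 19.9 and rank 314 of 1243, inside the strongest 25.3% of the list and above the ranks of the 5 other sites in their own FLAG list. With the Pita antibody it was among the last peaks listed, with a fold of 2.85 and rank 486 of 492. The joined lists gave it −log10 p values there of 5.98 (first) and 363 (second), a ratio of 60.7. Such a gap was usual in PitaZ276 Pita, where the ratio had a median of 25.5. Its 10th and 90th percentiles were 11.1 and 79.0. The FLAG summits, at 9971153 and 9971156, lay 10 and 13 bp inside the end of CG12134 that faces eIF3j, a translation initiation factor gene. The second-list Pita summit, at 9971164, was 11 bp from the first FLAG summit, and the first-list Pita summit was 447 bp away, at 9971600, where CG12134 and the antisense gene asRNA:CR46453 overlap. Neither PitaΔZ list had a peak at this site.

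**Figure D2:**
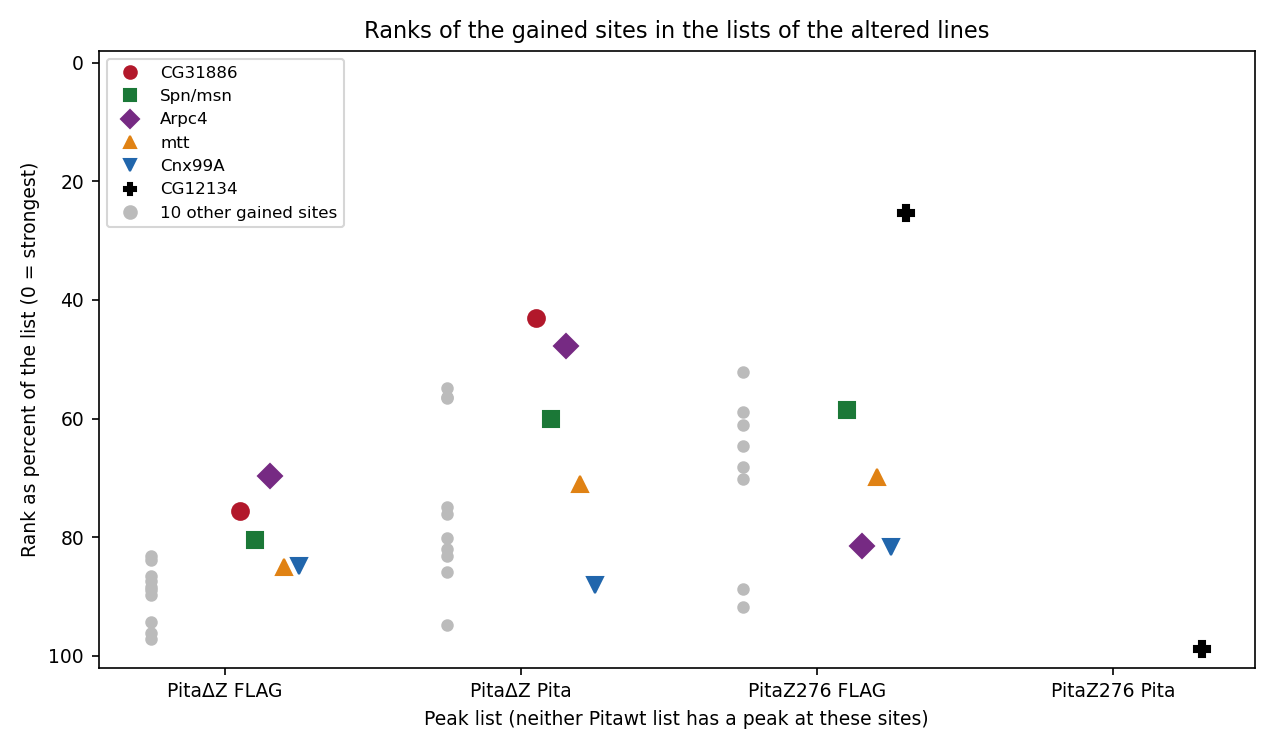
Rank of each site as a percent of its list, with 0 the strongest, in the 4 lists of the altered lines. Coloured symbols are the sites at the 7 genes and grey points the 10 other sites gained in PitaΔZ. In PitaΔZ FLAG the 5 coloured sites lie between 69.6% and 85.0%, and CG12134 lies at 25.3% in PitaZ276 FLAG and 98.8% in PitaZ276 Pita.

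The PitaΔZ sites ranked low in the FLAG list and over a wider range in the Pita list. Their FLAG ranks ran from 69.6% of the list (Arpc4) to 85.0% (mtt), and the 15 gained sites together from 69.6% to 97.2%. With the Pita antibody CG31886 and Arpc4 ranked higher in their list, at 43.0% and 47.7%, while Cnx99A stood at 88.0%. None of the 15 was called in PitaZ276 Pita, the shortest list. The share of all PitaΔZ FLAG peaks that met a PitaZ276 Pita peak was not counted, so nothing is read from that absence. In PitaZ276 FLAG, which played no part in their choice, 4 of the 5 followed sites and 8 of the 10 others were called. Of all PitaΔZ FLAG peaks 98.4% met a PitaZ276 FLAG peak (exact 95% interval 97.1 to 99.2, counting error only), and of the weakest 25% of its peaks by rank 94.2% (89.6 to 97.2). The count of 4 of 5 rests on few sites and on the joined ends at CG31886. It also rests on weak calls at Arpc4 and Cnx99A, with PitaZ276 FLAG folds of 3.01 and 3.72. Their joined summits lay 514 and 936 bp apart, and the second-list peak at Cnx99A was that of the neighbour. With a fold of at least 4, or with summits within 100 bp, the count was 2.

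**Figure D3:**
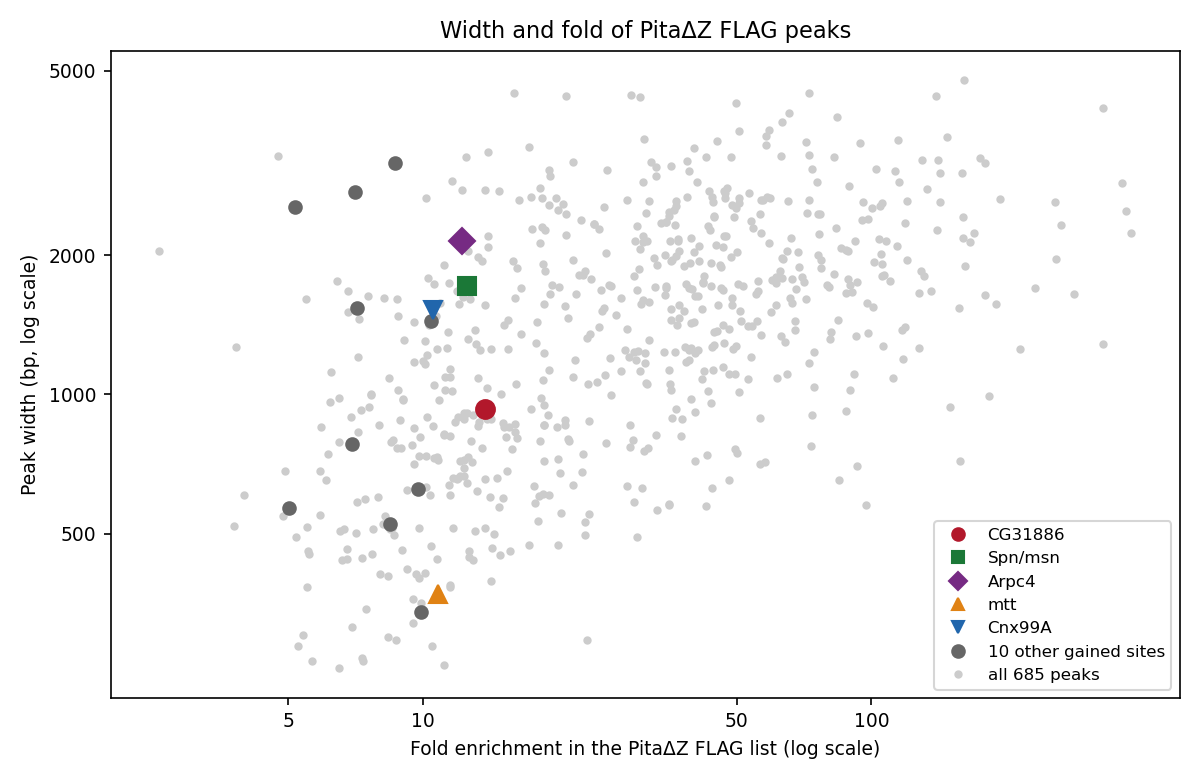
Width in bp against fold enrichment for all 685 PitaΔZ FLAG peaks, both on log scales. Coloured symbols are the 5 sites at the chosen genes and dark points the 10 other gained sites. The sites at Arpc4, Spn/msn and Cnx99A lie above most peaks of like fold, and the site at mtt lies below most.

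The sites differed in width. Each PitaΔZ FLAG peak was set beside the 100 peaks nearest to it in rank. The median width of these neighbours was 820 bp for the site between Spn and msn, and only 9 of the 100 were wider than its 1716 bp. At Arpc4 14 of 100 were wider than 2142 bp, and at Cnx99A 11 were wider than 1521 bp. The site at CG31886, at 930 bp, had 44 wider neighbours, and 94 of 100 were wider than the mtt peak. The CG12134 peak, 1921 bp wide in PitaZ276 FLAG, had 51 wider neighbours in its own list. The broad peaks between Spn and msn, at Arpc4 and at Cnx99A each covered a gene end, and the narrower peaks at mtt and CG31886 covered none. Among the gained sites not followed, narrow peaks near CG43759 (339 bp) and Src64B (625 bp) did cover one, 159 and 22 bp from their summits. A wide peak is also more likely to take in a gene end, so nothing is read from this split.

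**Figure D4:**
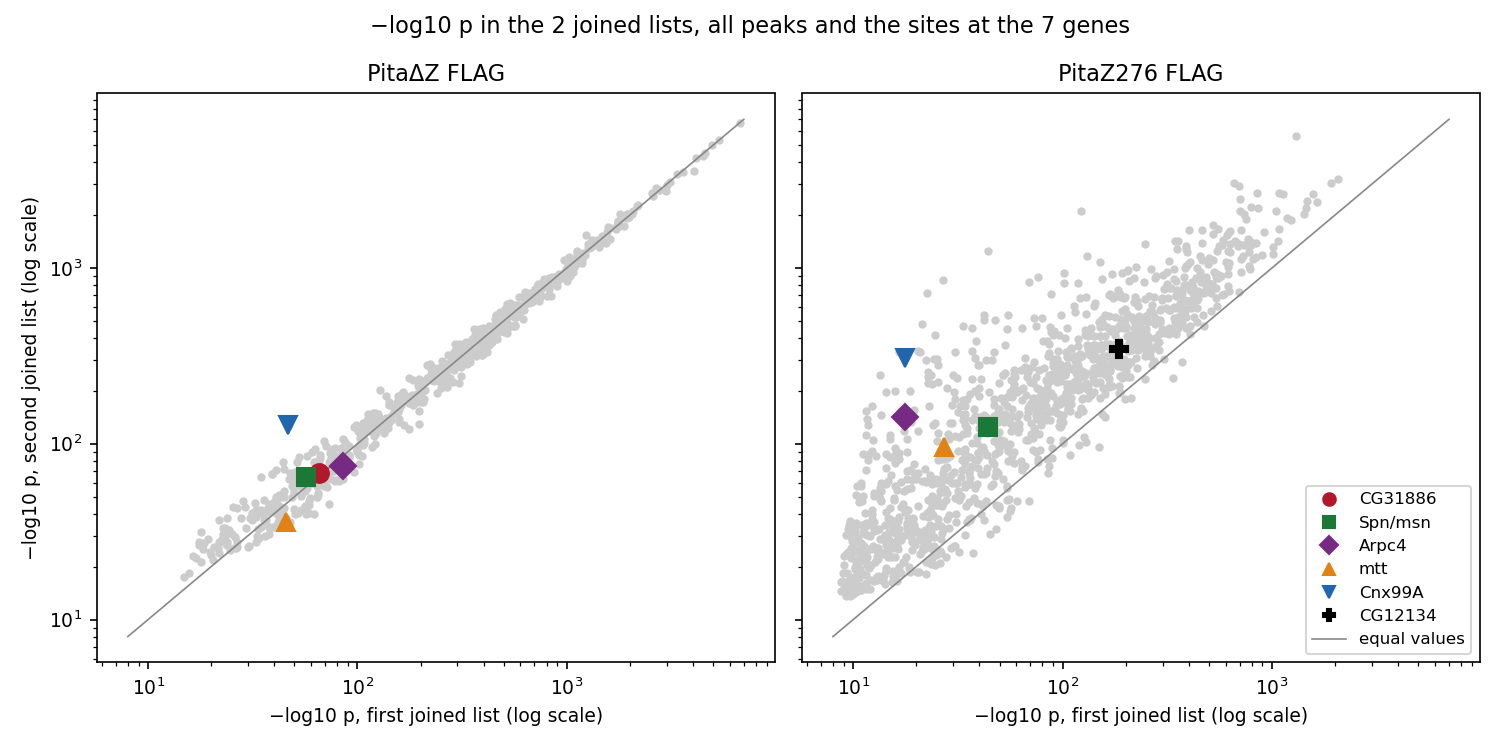
The −log10 p of each peak in the first and the second joined list, both on log scales, for PitaΔZ FLAG (left) and PitaZ276 FLAG (right). Grey points are all peaks, coloured symbols the sites at the chosen genes, and the line marks equal values. In PitaΔZ FLAG the Cnx99A site lies off the line, where its second-list value of 127 is that of the neighbouring peak.

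The joined lists differed less in PitaΔZ FLAG than in PitaZ276 FLAG at the sites called in both. In PitaΔZ FLAG the −log10 p of the first and second list was 65.5 and 67.9 at CG31886, 57.0 and 64.3 between Spn and msn, 85.6 and 74.9 at Arpc4, and 45.5 and 35.8 at mtt. The ratios of the second to the first ran from 0.786 to 1.13 over these 4 sites, against a list median of 1.02 and a range of 0.851 to 1.24 between the 10th and 90th percentiles. The lowest, at mtt, lay below that range. The value at Cnx99A was 46.6 in the first list, with the neighbour's 127 in the second. In PitaZ276 FLAG the second list was the higher at every site. The ratio was 2.82 between Spn and msn, 3.54 at mtt, 7.99 at Arpc4, 17.5 at Cnx99A (again the neighbour's value) and 1.88 at CG12134, against a median of 2.05 over the list, where 9 in 10 peaks were at or below 4.76. The ratios at Arpc4 and at the CG31886 peak (7.95) thus exceeded those of most peaks, and the joined summits there lay 514 and 568 bp apart. Joined summits lay over 200 bp apart in 13.5% of PitaZ276 FLAG peaks and in 1.61% of PitaΔZ FLAG peaks, and the part of this mismatch in the calls was not tested.

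Apart from Cnx99A, no site had a Pitawt peak within 2 kb, and the gaps differed widely. The nearest began 13299 bp from the CG31886 site, beside CG9515, with a Pitawt FLAG fold of 22.0, and 5 of the 6 lists held it, PitaZ276 Pita being the exception. For the site between Spn and msn it was the strong peak inside Spn, 21001 bp away. For mtt it was a Pitawt Pita peak near CG12780, 34373 bp away, with a fold of 29.0 and rank 282 of 1195, and this peak was called in no altered line. For Arpc4 it was a Pitawt FLAG peak inside Pfas, 78281 bp away, with a fold of 7.72, which was called in that list alone. For CG12134 it was a strong peak 15815 bp away near TER94, rank 53 of 1195 in Pitawt Pita, which was called in all 6 lists. At mtt and Arpc4 the nearest wild-type site was thus called in no list of PitaΔZ or PitaZ276. At CG31886, Spn and CG12134 it was called in both lines. The FLAG lists held 685 (PitaΔZ) and 1243 (PitaZ276) peaks against 1792 in Pitawt. The share of all Pitawt peaks missing from both altered lines was not counted, so nothing is read from this contrast. Over the 18 PitaΔZ FLAG peaks without a Pitawt partner the median gap to a Pitawt peak was 33705 bp, and 2 of the 18 lay within 2 kb. Over the 135 such peaks of PitaZ276 FLAG the median was 15705 bp, and 22.2% lay within 2 kb. From a Pitawt FLAG peak to the nearer of its neighbours in that list the median gap was 13957 bp, and 17.4% lay within 2 kb. The gaps at CG31886 and CG12134 were close to this nearest-neighbour median, though they were taken to the Pitawt lists of both antibodies.

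Sites with the same pattern of calls as Spn/msn, Arpc4, mtt and Cnx99A in all 6 lists were found at 8 further places. The 5 with the highest PitaΔZ FLAG fold were near Sgs3 (10.4), which encodes a salivary glue protein, near CG43759 (9.90), near Src64B (9.74), a Src-family kinase gene, inside bark (8.63), and inside Pex23 (7.05), a peroxisome gene. The other 3 were at dpr21 (6.92), the nearest gene at 18728 bp, inside resilin (5.17), which encodes an elastic cuticle protein, and inside side-VI (5.02). CG31886 shared its pattern, PitaΔZ alone with both antibodies, with sites near scramb1 (8.44), a scramblase gene, and inside the heat-inducible lncRNA:Hsromega (7.12). The CG43759 peak resembled the mtt peak in shape, at 339 bp with summits within 31 bp over 3 lists. The scramb1 site resembled the Cnx99A site in place, with a Pitawt FLAG peak 376 bp away. The bark, Pex23 and resilin peaks were the broadest, at 3165, 2740 and 2538 bp, and 0, 3 and 2 of their 100 neighbours in rank were wider.

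The other genes of the same complexes and pathways were set beside the 7. Counts with a Pitawt FLAG peak within 2 kb are to be read against the 20.5% of all genes with one. For a peak in any list the share of all genes was not counted, and it cannot be below that. Of 8 Arp2/3 complex genes, 2 had a Pitawt FLAG peak within 2 kb: Arp2, with a fold of 54.2 and a peak in all 6 lists, and Arpc1, with 4.78 and a peak in Pitawt FLAG alone. Arpc4, chosen for this pattern, had PitaΔZ peaks and no Pitawt peak. Of the 2 metabotropic glutamate receptor genes, mGluR had the reverse of mtt, with Pitawt peaks of fold 7.90 (FLAG) and 7.65 (Pita) and none in the altered lines. Of 6 chaperone genes set beside calnexin (Cnx99A itself, Cnx14D, CG1924, Calr, Gp93 and Hsc70-3), Cnx99A alone had a peak in any list. None of 4 catalytic subunit genes of protein phosphatase 1, the partner of spinophilin, had a peak in any list. Of 12 JNK and Hippo pathway genes set beside msn, 5 had a peak in any list, and all 5 had one in Pitawt FLAG. The kinase gene wts had the strongest of these, with a Pitawt FLAG fold of 128 and rank 7 of 1792, and rank 1 of 685 in PitaΔZ FLAG. Like the strong site inside Spn, it had no PitaΔZ Pita peak. Jra, the fly Jun gene, had a FLAG fold of 19.5 in Pitawt and peaks in 5 lists, and the JNK phosphatase gene puc had a Pitawt FLAG fold of 9.93. Peaks at bsk, the JNK gene itself, and at hpo were called in both Pitawt lists and in no altered line. For these genes, as for mGluR, the share of all genes with that pattern was not counted, so nothing is read from it. Among pita and the genes of 4 other insulator proteins, pita and CTCF had peaks, and both were called in Pitawt FLAG.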

How the data were processed

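Per the submitters' processing notes, the authors used cutadapt, Bowtie2, Picard, bedtools, MACS2 and deepTools with build dm6; no versions were named. The 6 deposited lists, set against the preimmune library by their names, have 20 columns and no header. From layout and values, the deposited fold enrichment was taken as a ratio over background, and other deposited columns as −log10 p, −log10 q and −log10 IDR. Fold, q and peak ends are those of the first joined list. No source used here says which library stands behind each joined list, so these were not treated as replicates.

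Peaks were ranked within a list by q, then fold. Sites were shared at 1 bp of overlap. Gene positions were those of RefSeq (Release 6, the dm6 assembly), used without strand. The members and gene lists were chosen with earlier results of these data known. Named genes were the members, the other gained sites, their nearest genes and the related lists; zw5 had no row in the table. No test between lines was possible, with 1 list per line and antibody. The planned promoter motif search was not run, as no sequence was used here. On simulated data with 685 peaks the overlap code found 100% of planted overlaps. Shares have exact Clopper-Pearson 95% intervals. The tools were scipy 1.17.1, pandas 2.3.3, numpy 2.4.6 and matplotlib 3.10.9 under Python 3.11.15.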

Additional observations from a re-analysis of the deposited data

How the results depend on the processing

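All 6 sites lacked a Pitawt peak with summits within 100 bp. They also did with 50% reciprocal overlap and with a −log10 IDR of at least 2 in every list. None of these settings could add a Pitawt peak, as each site reached over 100 bp to either side of its summit. The count was thus fixed in advance, and the settings are no check. Under the looser settings 5 sites lacked one: when a Pitawt peak within 500 bp or 2 kb counted, or with the ends of the second joined lists. The second-list setting was chosen after seeing the data. The exception was Cnx99A. All 5 PitaΔZ sites were called with both PitaΔZ antibodies at a −log10 IDR of at least 2, a fold of at least 4 or a −log10 q of at least 5. The IDR setting could not change this count, as the lowest −log10 IDR was 2.01 in PitaΔZ FLAG and 2.02 in PitaΔZ Pita. FLAG fold chose the sites, so the fold setting bears on the Pita antibody alone. With 50% reciprocal overlap the count was 3 (Arpc4 and Cnx99A lost), and with summits within 100 bp also 3 (Spn/msn and Arpc4 lost). With the top 492 peaks of each list, a setting also added after seeing the data for this count, it was 1 (Arpc4). The 4 called in PitaZ276 FLAG became 2 with a fold of at least 4 and 2 with summits within 100 bp, in each case Spn/msn and mtt, and 0 with only the top 492 peaks of each list kept. They became 5 with the ends of the second joined lists, since CG31886 was added. The 5 still held Cnx99A, which met Pitawt peaks at that setting and whose second-list PitaZ276 FLAG peak was that of the neighbour. The 28 peaks at the genes were 23 in gene bodies alone and 29 with 5 kb on each side. The median rank of the 5 sites in PitaΔZ FLAG was 551 and ranged from 522 to 551 under other orderings. Leaving out a replicate could not be done with joined lists. No paired analysis was possible because each line and antibody has a single joined list. Unknown depth limits every absence to a statement about these lists.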
